A study of Sus scrofa with 80 samples.

Results

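Collagens, laminins, fibronectin, fibrillins, fibulins and small leucine-rich proteoglycans of the extracellular matrix, the integrins that bind them, and the metalloproteinases (MMPs) and tissue inhibitors (TIMPs) that govern their turnover were followed across the endocrine tissues of 4 pig breeds. Members were chosen by gene symbol: every gene to which the annotation of the Affymetrix Porcine GeneChip gives a single symbol that starts as a collagen chain, laminin chain, integrin subunit, fibrillin, fibulin, MMP or TIMP, together with FN1, SPARC, BGN, DCN, LUM and FMOD where measured. The rule found 50 of the 6765 genes with a single symbol, on 90 of 10069 probesets, and a gene on several probesets was represented by the probeset with the highest mean over all arrays. COL1A1, COL4A1, FMOD and the laminin alpha chains LAMA2 and LAMA4 had no probeset with a single symbol and were not analysed here. One member, ITGB1BP2 (melusin, a muscle protein that binds integrin beta 1), was matched by the letters of its symbol and is not an integrin.

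A total of 80 arrays came from 16 pigs and 5 tissues: hypothalamus with the mamillary body and grey tubercle, the whole adenohypophysis without the neurohypophysis, a part of the thyroid gland, a part of the gonad (9 testes and 7 ovaries) and back fat of the lumbar region. The breeds were Large White (mean age 87 days and weight 27.2 kg), Duroc (83 days, 23.1 kg), Youli (80 days, 18.9 kg), which is a cross of Landrace with a hybrid line of Chinese and European breeds, and Iberian (89 days, 17.4 kg). Each breed gave 2 males and 2 females except Youli, with 3 males and 1 female, and all animals had fasted for 24 h. Breed, age and weight moved together in this design and cannot be told apart. Values are log2 intensities after GCRMA, the background correction and normalization used by the authors, so that 1 unit is a factor of 2, and differences between probesets of different genes in level have no meaning on this scale.

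The extracellular matrix is built from collagen trimers. Fibril-forming collagens give connective tissue its strength, type IV collagen and the laminins form the basement membrane sheets under epithelium and endothelium and around adipocytes and nerves, and proteoglycans such as decorin and lumican bind to collagen fibrils and limit their width. Integrins are pairs of an alpha and a beta subunit that tie this scaffold to the cytoskeleton, while MMPs cut matrix proteins and TIMPs block the MMPs.

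Of the 50 members, 34 exceeded a log2 value of 4 in at least 4 arrays. The other 16 were COL2A1, COL7A1, COL10A1, COL11A1, COL17A1, ITGA2, ITGA2B, ITGA6, ITGB7, MMP1, MMP3, MMP7, MMP9, MMP13, MMP20 and TIMP4. Several of these stayed at a flat low level in every array: COL10A1, the collagen of hypertrophic cartilage, lay between 2.13 and 2.31 in all 80 arrays, MMP9, a gelatinase of leukocytes, between 1.997 and 2.124, and ITGA6, a laminin receptor subunit, between 2.62 and 2.98. MMP7 reached 6.41, ITGA2 5.10 and COL11A1 4.68 in their highest arrays. Differences against a tissue at such a low level depend on the background correction. COL3A1, the type III chain of soft connective tissue, had 1 probeset, which reached only 5.67 in its highest array.

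The defining markers of each tissue were high in its arrays, with exceptions that touch results below. The ovary of Iberian female 25 lacked them: its 9 ovary markers summed to 7.84 on the log2 scale against a median of 13.33 over the 7 ovaries, and its 4 Leydig cell and steroidogenic markers summed to 4.19 against a median of 9.37. The back fat of Youli male 19 carried a skeletal muscle signal of 17.46 (median of back fat 6.24). In the back fat of Duroc male 12, Duroc female 14, Large White female 6 and Iberian female 22 it was 13.26, 12.89, 10.33 and 8.92. The thyroid arrays of Duroc male 12 and Youli male 20 carried an adipocyte signal of 13.68 and 13.04 (median of thyroid 11.12). In these thyroid arrays 12 and 9 members lay at least 1 log2 unit above the thyroid median, the largest numbers in that tissue. The thyroid arrays of Large White male 2 and females 6 and 5 had adipocyte signals of 12.88, 12.40 and 12.11. In each of them only 1 member lay that far above the median. The array of Youli male 20 also held pituitary hormone transcripts, with a summed signal of 15.57 against a thyroid median of 5.69. This signal was 12.48 in the thyroid of Youli male 19. In the hypothalamus of Youli male 19, Duroc female 13 and Iberian male 24 it was 12.47, 10.73 and 9.08, against a median of 5.925. The tissue results were refitted without the ovaries of Iberian females 22 and 25, the thyroid of Duroc male 12 and the back fat of Youli male 19. The ovary of Iberian female 22 did not lack ovary markers (13.70). It had the highest steroidogenic signal (13.84) and the highest level of TIMP1, itself a member. The thyroid of Youli male 20 stayed in this refit. So did the other arrays named for pituitary transcripts and the other back fat arrays named for a muscle signal. In the fits that left out 1 whole animal, Youli male 20 included, 10 to 11 members were higher and 11 to 13 lower in the thyroid gland. In the thyroid gland, titles of 11 of 16 samples disagreed with their breed and sex fields. The title was used. The fields gave the same number of members called in the thyroid gland, 0 for breed and 0 for sex, which cannot tell which labels are right. The mean over the tissues of an animal and the interaction of breed and tissue were not refitted with the fields.

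Members were first compared over tissues. All 50 passed the test over the 6 tissue classes, testis and ovary apart (limma moderated F with Benjamini-Hochberg adjustment), against a background of 96.7% of all genes. Back fat held the highest mean of 21 of the 34 brighter members, ovary of 5, hypothalamus of 3, thyroid gland of 3, testis of 2 and adenohypophysis of none. Of 5906 genes that passed the same filter, 18.8% had their highest mean in back fat. The shares were 13.6% in ovary, 17.8% in hypothalamus, 15.4% in thyroid gland, 20.3% in testis and 14% in adenohypophysis. The lowest mean was in the hypothalamus for 22 of the 34 members and in the adenohypophysis for 7, where 29.9% and 16.4% of genes had theirs. Each tissue was then compared with the mean of the other 5 classes in 1 limma fit with breed and sex as fixed terms.

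**Figure D1:**
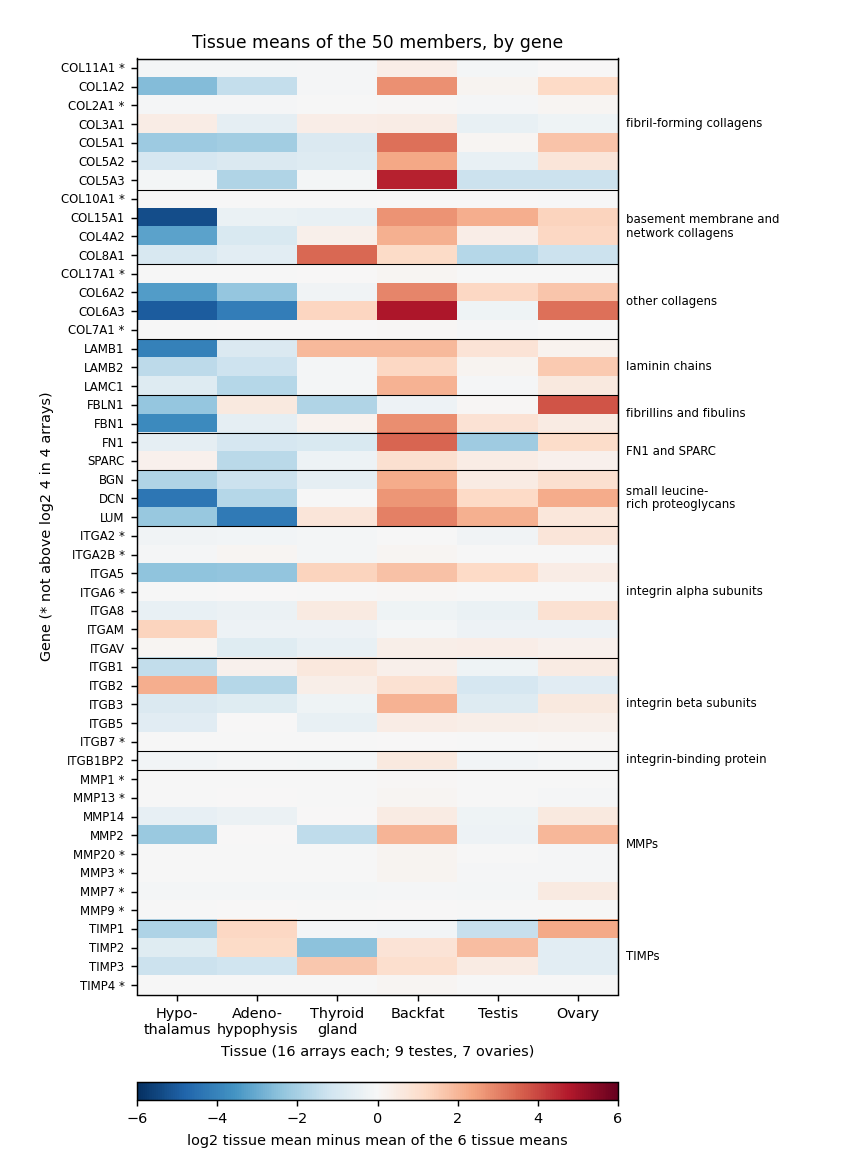
Mean log2 value of each of the 50 members in 6 tissue classes, as the difference from the mean of that gene's 6 tissue means (colour scale from -6 to 6), with genes grouped by role and an asterisk on the 16 members that did not exceed 4 in 4 arrays. In the back fat column 30 of the 34 brighter members were called higher than in the other tissues, and in the mostly blue hypothalamus column only ITGB2, ITGAM, COL3A1 and SPARC were.

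In back fat, 43 of 50 members differed from the other tissues (adjusted p under 0.05; 77.6% of all genes), of which 42 were higher and 1 lower, where 39.6% of all genes were higher and 37.9% lower. The median difference of the members was 0.65, against -0.0018 over all genes. With a difference of at least 1 log2 unit required as well, 24 members were higher and 0 lower, against backgrounds of 13.1% and 11.9%. Of the 42, 12 were among the 16 dim members, with differences of only 0.03 to 0.50. Centring each array on its median, which raised the median difference of all probesets in back fat from 0.03 to 0.19, gave 44 higher and 0 lower.

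The largest difference was that of COL6A3, a chain of the type VI collagen that forms beaded microfibrils around cells and is abundant in fat. COL6A3 lay between 11.890 and 12.999 in the 16 back fat arrays (median 12.53), between 10.14 and 11.96 in the ovaries, 8.16 and 10.57 in the thyroid gland and 6.75 and 7.84 in the testes. It lay between 2.68 and 4.60 in the adenohypophysis and between 2.06 and 4.49 in the hypothalamus. Thus back fat overlapped with the ovary only at the edge, and the brain and pituitary arrays lay far below all others. The difference in back fat was 5.82 ± 0.16 (SE), a 56.3-fold higher level (adjusted p = 2.4e-45). COL6A2, the chain that joins COL6A3 in the same trimer, was higher by 3.53 ± 0.17, with 8.21 to 11.16 in back fat and 3.23 to 4.94 in the hypothalamus.

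COL5A3, a chain of the type V collagen that starts the assembly of fibrils, was the next. Its back fat arrays ranged from 9.09 to 10.96 (median 10.15), and the highest array of any other tissue was 6.32, in the thyroid gland. It was 46.8-fold higher in back fat (5.55 ± 0.13), and lower in testis by 1.57 and in ovary by 1.49. The other type V chains were higher in both back fat and ovary, COL5A1 by 3.97 ± 0.14 and 2.23 ± 0.21, and COL5A2 by 2.77 ± 0.16 and 1.02 ± 0.25. Of the main fibril collagen of skin and bone, COL1A2 was 9.60-fold higher in back fat (3.26 ± 0.20), where its arrays spread from 7.98 to 11.39. COL3A1 was higher by 0.52 ± 0.13, with a median of 3.81 and a highest array of 5.67 in back fat, and overlapped with all other tissues.

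FN1, the adhesive glycoprotein fibronectin, was also set apart in back fat. Its arrays lay between 11.82 and 13.28 there (median 12.68), above the highest ovary at 10.89, hypothalamus at 10.71 and thyroid gland at 10.58. The testes were lowest, between 6.65 and 7.75. The difference was 4.21 ± 0.19 in back fat and -2.60 ± 0.26 in testis. SPARC, a collagen-binding matricellular protein, varied less between tissues: its difference in back fat was 1.18 ± 0.07, with 14.37 to 14.97 in back fat against 11.57 to 12.55 in the adenohypophysis, where it was lowest.

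**Figure D2:**
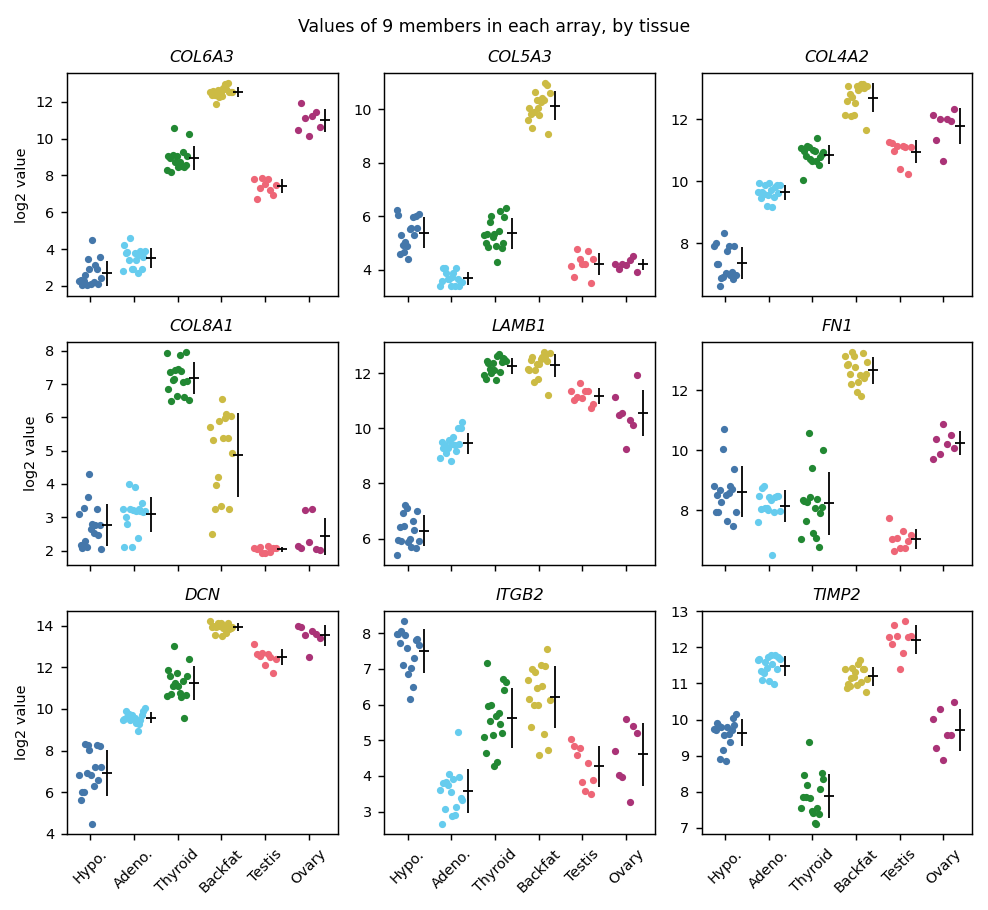
Log2 values (vertical axes, each panel with its own scale) of 9 members in every array, 16 arrays per tissue with 9 testes and 7 ovaries; black marks are the mean and SD of a tissue. COL5A3 and FN1 stand apart in back fat, COL8A1 is highest in the thyroid gland, ITGB2 in the hypothalamus and TIMP2 in the testis.

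All 3 measured small proteoglycans were higher in back fat: LUM (lumican) by 3.62 ± 0.21, DCN (decorin) by 3.16 ± 0.18 and BGN (biglycan) by 2.64 ± 0.15. The 3 laminin chains were higher as well, LAMC1, the gamma 1 chain present in most laminins, by 2.50 ± 0.09, LAMB1 by 2.33 ± 0.13 and LAMB2 2.82-fold. Of the basement membrane collagens, COL4A2 was higher by 2.58 ± 0.12 and COL15A1, which links basement membranes to the matrix around them, by 3.21 ± 0.15. FBN1, the microfibril protein fibrillin 1, was 10.3-fold higher (3.37 ± 0.15). The single member lower in back fat was FBLN1, by 0.38 ± 0.16, and this call was lost without the 4 arrays named above (adjusted p = 0.0531), with arrays centred, and without any 1 of Large Whites 4 and 5, Duroc 15, Youli 21 and Iberian 23 (differences of -0.35 to -0.21).

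Of the integrins, 4 of 7 alpha and 4 of 5 beta subunits were higher in back fat and 0 lower, where 39.6% of all genes were higher and 37.9% lower. The alpha calls include the dim members ITGA6 and ITGA2B, with back fat means of only 2.85 and 2.18. Among the beta subunits, ITGB3, of the vitronectin receptor, was higher in back fat by 2.51 ± 0.15, with 3.71 to 6.82 in back fat against 2.90 to 3.03 in the hypothalamus. ITGB1, the partner of most alpha subunits, was higher by 0.39 ± 0.06 only. ITGA5, the alpha subunit of the fibronectin receptor, was higher in back fat (2.13 ± 0.17), thyroid gland (1.62 ± 0.17) and testis (1.49 ± 0.23), and 7.32-fold and 7.15-fold lower in hypothalamus and adenohypophysis, whose highest arrays were 3.53 and 3.54. The melusin gene ITGB1BP2 was at 9.57 in the back fat of Youli male 19, the array with the highest skeletal muscle signal, and between 3.27 and 4.27 in the other back fat arrays. Its difference of 0.70 fell to 0.34 without the 4 arrays.

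MMP2, a gelatinase, was higher in back fat (2.43 ± 0.16) and in ovary (2.46 ± 0.25). MMP14, the membrane enzyme that activates MMP2, was near its low level in most arrays and higher by 0.60 ± 0.12 in back fat and 0.66 ± 0.18 in ovary. The summed signal of the endothelial markers was also highest in back fat, with a median of 12.78 over 9 genes, and second in the thyroid gland with 11.66. Their part in the levels of the matrix genes was not tested, and in such bulk samples fewer cells of a type and less RNA per cell cannot be told apart.

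In the hypothalamus 32 members differed from the other tissues (74.8% of all genes), 4 higher and 28 lower, where 28.5% of all genes were higher and 46.3% lower. The median difference was -0.62 for the members and -0.14 for all genes. At 1 log2 unit or more the counts were 2 and 21, with backgrounds of 12.7% and 17.4%. COL15A1 gave the largest difference: its hypothalamic arrays lay between 2.40 and 4.60 (median 3.52), and no array of another tissue was below 6.97. It was 83.5-fold lower (-6.38 ± 0.15). COL6A3 was 63.99-fold lower, DCN 37.1-fold, LAMB1 29.1-fold, FBN1 24.3-fold and COL4A2 14.2-fold. DCN varied more between hypothalamic arrays than in any other tissue, from 4.49 to 8.31 (SD 1.11, n = 16).

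The members higher in the hypothalamus were the integrin beta 2 subunit ITGB2, its partner ITGAM, COL3A1 and SPARC. ITGB2 and ITGAM form the complement receptor 3 of macrophages, microglia and neutrophils. ITGB2 lay between 6.15 and 8.35 in the hypothalamus (median 7.70) and between 2.66 and 5.22 in the adenohypophysis, with thyroid and back fat in between and overlapping with the hypothalamus. Its difference was 2.64 ± 0.19 (6.24-fold). ITGAM was spread from 2.22 to 5.45 in the hypothalamus, while the highest array elsewhere was 3.72, in back fat, and its difference was 1.61 ± 0.15. The summed signal of the 8 measured leukocyte markers was highest in the hypothalamus too, with a median of 10.56 against 9.37 in back fat and 7.62 in the adenohypophysis. Such a sum is set by its brightest genes. Of the 8 markers, 3 had a mean under 3 in the hypothalamus, against 2 in back fat and 1 in the thyroid gland. Whether leukocytes account for the integrin values was not tested. COL3A1 (0.53 ± 0.13) and SPARC (0.32 ± 0.07) had small differences.

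In the adenohypophysis, 31 members differed (68.0% of all genes), 4 higher and 27 lower, against 29.4% and 38.6% of all genes, and at 1 log2 unit or more 2 and 18 (9.12% and 12.5%). LUM and COL6A3 were lowest relative to the other tissues, by 5.08 ± 0.21 and 4.99 ± 0.16. LUM ranged from 3.09 to 6.85 in the adenohypophysis and from 5.84 to 7.87 in the hypothalamus, so that these tissues overlapped, whereas all thyroid, fat and gonad arrays were at 8.57 or above. ITGA5 was lower by 2.84, COL6A2 by 2.82, COL5A1 by 2.49, LAMC1 by 2.05 and SPARC by 1.95. Of the inhibitors, TIMP3 was lower by 1.43 ± 0.24 and TIMP1 was higher by 1.48 ± 0.16, with 9.25 to 10.34 in the adenohypophysis against 5.93 to 7.76 in the hypothalamus. FBLN1 (0.70 ± 0.16) and ITGB1 (0.33 ± 0.06) were higher as well. TIMP2 was higher by 1.36 ± 0.11 on the chosen probeset and lower on its other bright probeset (-0.77 ± 0.11), so that its direction depends on the probeset.

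The thyroid gland differed for 22 members (65.3% of all genes), with 10 higher and 12 lower (backgrounds 32.0% and 33.3%), and 5 and 5 at 1 log2 unit or more (9.9% and 9.45%). COL8A1, a chain of the network-forming type VIII collagen of vessel walls, was the clearest: all 16 thyroid arrays lay between 6.51 and 7.96. Back fat spread from 2.51 to 6.56 and only its highest array reached this range, the adenohypophysis and hypothalamus stayed at 4.30 or below, and the testes lay between 1.92 and 2.12. The difference in the thyroid gland was 4.16 ± 0.20 (17.8-fold). LAMB1 was higher by 2.32 ± 0.13, to the level that it had in back fat, TIMP3, the inhibitor that stays bound to the matrix, by 1.93 ± 0.24, ITGA5 by 1.62 ± 0.17 and COL6A3 by 1.53 ± 0.16. Lower were TIMP2 (-2.96 ± 0.11), FBLN1 (-2.16 ± 0.16), MMP2 (-1.81 ± 0.16) and FN1 (-1.12 ± 0.19). TIMP2 ranged from 7.12 to 9.38 in the thyroid gland, and only the highest array, of Duroc male 12, reached the range of hypothalamus and ovary.

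TIMP1, TIMP2 and TIMP3 thus each had another order of tissues, with TIMP1 highest in the ovary, TIMP2 in the testis and TIMP3 in the thyroid gland. For TIMP2 the order rested on the probeset in part. The direction turned between its bright probesets in adenohypophysis, in hypothalamus (-0.87 ± 0.11 on the chosen and 1.39 ± 0.11 on the other) and in ovary. The chosen probeset had means of 9.63 in the hypothalamus and 11.48 in the adenohypophysis, and the other one 11.32 and 9.53, while both were highest in testis and lowest in the thyroid gland (r = 0.667 over the 6 tissue means). Of 12 other bright probesets, from 9 genes, 11 followed the chosen probeset with r of at least 0.8 over the tissue means, which are not independent replicates.

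Compared with the other tissues, the testis differed for 24 members (60.0% of all genes), with 13 higher and 11 lower (33.3% and 26.6%). The ovary differed for 31 (53.4%), with 27 higher and 4 lower (27.1% and 26.3%). At 1 log2 unit or more these were 6 and 5 in testis (10.9% and 9.84%) and 15 and 2 in ovary (10.1% and 7.46%). Centring each array on its median gave 22 higher and 16 lower in ovary, where it moved the median difference of all probesets from -0.04 to -0.18. In testis the largest differences were those of LUM (2.60 ± 0.28), COL15A1 (2.49 ± 0.20), TIMP2 (2.17 ± 0.14) and ITGA5 upwards, and of FN1 (-2.60 ± 0.26), COL8A1 (-2.01 ± 0.27), TIMP1 (-1.66 ± 0.22) and COL5A3 downwards. In ovary, FBLN1, an elastic fibre and basement membrane protein, was 24.6-fold higher (4.62 ± 0.25), COL6A3 16.0-fold, DCN 7.08-fold (2.82 ± 0.27) and TIMP1 6.78-fold (2.76 ± 0.24). Lower in ovary were COL8A1 (-1.58 ± 0.31), COL5A3, ITGB2 (-0.83 ± 0.29) and TIMP2 (-0.70 ± 0.16). TIMP2 was higher in ovary on its other bright probeset (0.41 ± 0.17), and the call of ITGB2 was lost without the 4 animals of high actin difference described below (-0.72).

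The testes and ovaries were set against each other in a fit of the 16 gonad arrays alone with breed as covariate. A total of 20 members differed (36.2% of all genes). In testis, 4 members were higher and 16 lower than in ovary, where 19.6% of all genes were higher in testis and 16.6% lower. At 1 log2 unit or more the counts were 3 and 10 (7.79% and 8.5%). All ovaries lay above all testes for 8 members (5.45% of genes), and all testes above all ovaries for 1, TIMP2 (7.17%). With arrays centred on their medians the split was 7 higher and 15 lower. Without the 4 arrays that stood apart it was 4 and 16, with all 20 members called in both fits.

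FBLN1 separated the gonads most. The 9 testes lay between 6.64 and 7.88 (median 7.62) and the 7 ovaries between 10.70 and 11.73 (median 11.19), which leaves a gap between them. The level was 12.7-fold higher in ovary (3.67 ± 0.19, adjusted p = 8.2e-08). TIMP1 lay between 6.03 and 8.27 in testes and between 9.73 and 13.48 in ovaries. The highest ovary, of Iberian female 22, was far above the next at 10.94, and the difference of 3.57 ± 0.47 was 3.39 without the 4 arrays. COL6A3 was 11.5-fold higher in ovary, without overlap, and so was FN1 (8.94-fold), with 6.65 to 7.75 in testes and 9.71 to 10.89 in ovaries.

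MMP2 (4.61-fold, testes 7.11 to 9.32 and ovaries 9.95 to 11.51), COL5A1 (3.05-fold), LAMB2 (2.54-fold) and ITGB1 (1.68-fold) also had all ovaries above all testes. LAMB2, the beta chain of laminins of mature basement membranes, lay between 7.356 and 9.001 in testes and between 9.46 and 10.38 in ovaries. With overlap between the groups, ITGB3, ITGA8, COL5A2, COL1A2, DCN, MMP14, COL4A2 and LAMC1 were higher in ovary, by 0.63 to 1.52. For ITGA8, the alpha subunit that pairs with ITGB1, the ovaries were spread from 2.59 to 6.92, with Iberian female 25 highest, and its call (adjusted p = 0.0464) was lost in 13 of the 16 fits that left out 1 animal.

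**Figure D3:**
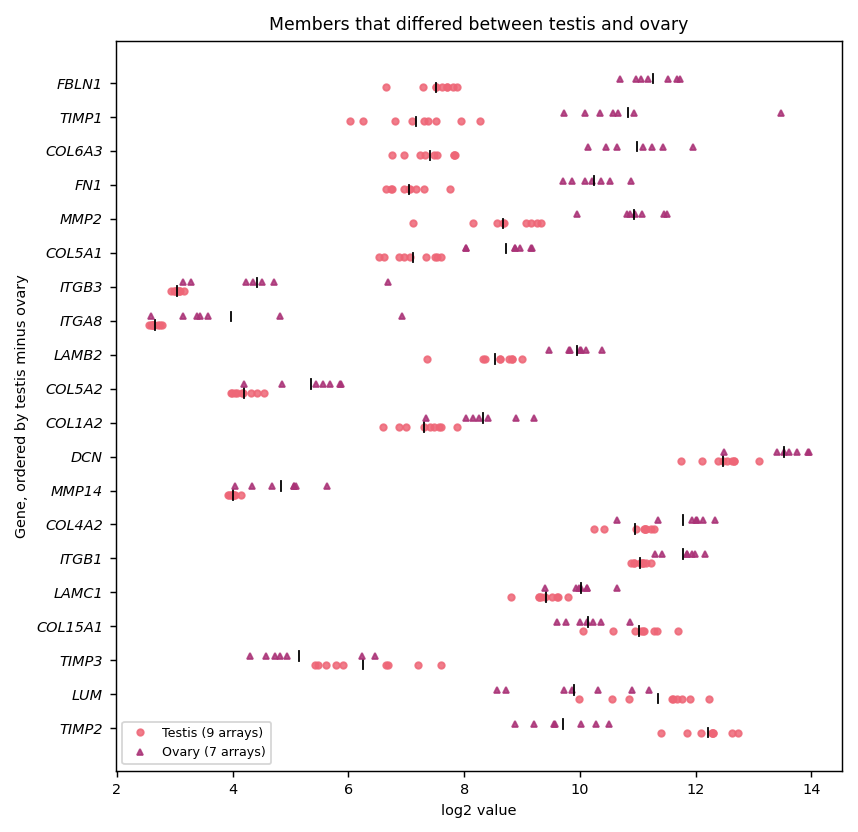
Log2 values (horizontal axis) of the 20 members that differed between the gonads, in 9 testes (circles) and 7 ovaries (triangles), with black ticks at the group means and genes ordered by the difference. The groups do not overlap for FBLN1, TIMP1, COL6A3, FN1, MMP2, COL5A1, LAMB2 and ITGB1, with ovaries above, and for TIMP2, with testes above.

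Higher in testis were TIMP2, LUM, TIMP3 and COL15A1. TIMP2 lay between 11.40 and 12.73 in testes and between 8.87 and 10.50 in ovaries, a 5.25-fold difference (2.39 ± 0.22, adjusted p = 8.4e-06). On the other bright probeset the difference was 1.88-fold (0.91 ± 0.17). LUM was 3.01-fold higher in testis, with 9.98 to 12.23 in testes and 8.57 to 11.20 in ovaries, so that these overlapped. TIMP3 (1.16 ± 0.26) and COL15A1 (0.96 ± 0.23) overlapped too. Hence DCN and LUM, 2 proteoglycans of collagen fibrils, differed between the gonads in opposite directions, DCN being 1.98-fold higher in ovary. The summed signal of the smooth muscle markers was higher in the ovaries as well, with 13.06 to 13.81 over 6 genes against 11.004 to 12.257 in the testes. The part of these markers in the differences was not tested. Without the 4 animals described below for their actin probesets, 3 members were higher in testis and 12 lower, and the calls of COL4A2, ITGA8, ITGB3, LAMC1 and LUM were lost.

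Other genes of matrix assembly were counted in the same fits. Of 9 measured genes that fold, trim or crosslink collagen, out of a list of 18, all 9 were lower in the hypothalamus (46.3% of all genes), 8 were higher and 1 lower in back fat (39.6% and 37.9%), and all 9 were higher in ovary (27.1%). In testis, 8 of them were lower than in ovary (16.6%) and none higher. LOX, which crosslinks collagen and elastin, was higher in back fat by 4.52, and PCOLCE2, an enhancer of procollagen cleavage, by 4.65. The collagen chaperone SERPINH1 was lower in the hypothalamus by 3.02 and higher in ovary by 2.28. PLOD1, a lysyl hydroxylase, was the one lower in back fat, by 0.34.

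Of 17 measured other matrix proteins, out of 27 listed, 15 were higher in back fat and 0 lower (39.6% and 37.9% of all genes), and 4 were higher and 11 lower in the hypothalamus (28.5% and 46.3%). MFAP5, a microfibril protein, was higher in back fat by 7.24, POSTN (periostin) by 6.62 and ASPN (asporin) by 6.11. Between the gonads, 1 was higher in testis (19.6% of all genes) and 9 in ovary (16.6%), with THBS1 (thrombospondin 1) lower in testis by 5.10 and VCAN (versican) by 4.97. TNC (tenascin C) was among those higher in the hypothalamus, by 2.81, and SPP1 (osteopontin) was higher in the adenohypophysis, by 4.42. Of 7 measured genes of TGF-beta signalling, the main pathway that induces collagen synthesis, 6 were higher in back fat (39.6% of all genes) and 5 in the thyroid gland (32.0%). In the hypothalamus 5 were lower (46.3%) and 0 higher, and in the adenohypophysis 3 were higher (29.4%) and 4 lower (38.6%).

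Breed differences of the members were small beside those between tissues. In no tissue did a member pass the moderated F test over the 4 breeds. The backgrounds were 0.192% of genes in hypothalamus, 0.281% in adenohypophysis, 0.695% in thyroid gland, 0.665% in back fat, 0.0296% in gonads, and 0.0% in testes or ovaries alone. At an unadjusted p under 0.05 there were 9, 9, 6, 7 and 2 members in hypothalamus, adenohypophysis, thyroid gland, back fat and gonads, and 5 in testes and 1 in ovaries alone. The smallest p was that of LAMB1 in the thyroid gland (adjusted p = 0.0663, limma).

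When the 5 tissues of an animal were averaged, 1 member differed between breeds (background 1.2%). This was BGN, the small proteoglycan biglycan, with an adjusted p of 0.0156, which was 0.058 with the actin difference described below as covariate and 0.103 without the 4 animals that stood apart in it. The 4 Durocs lay between 7.79 and 8.34, the Youli between 7.17 and 7.61, the Iberians between 6.61 and 7.16 and the Large Whites between 6.38 and 7.15. No animal of another breed reached the Durocs. Duroc was higher than the mean of the other breeds by 0.95 ± 0.15 (adjusted p = 0.0258), the single member called among 0.0739% of genes higher in Duroc, and its differences in single tissues ran from 0.58 in thyroid gland to 1.46 in adenohypophysis, none of them called. The call in Duroc was lost without any 1 of the 4 Durocs and with the 4 tissues other than gonads averaged (adjusted p = 0.0811). With all 80 arrays and the animal as replicate block, 5 members differed between breeds, BGN, COL1A2, COL3A1, TIMP2 and TIMP3, which is 10% of 50, where 14.4% of all genes did. Against the other breeds, 4 were called in Large White (3.74% of genes), 1 in Duroc (3.16%), 1 in Youli (4.29%) and 2 in Iberian (5.85%). This fit used 1 correlation of 0.076 between the arrays of an animal for all genes. For TIMP3, COL3A1, BGN and COL1A2 the mean correlation of animals between tissues was 0.513 to 0.667. The tissues of an animal thus counted nearly as separate replicates of a breed, and p-values of these members can be too small.

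Whether breed differences changed with the tissue was tested within animals in the 4 tissues other than the gonads. LAMB1 (adjusted p = 0.0333) and TIMP2 (adjusted p = 0.0385) passed, 2 of 50, where 5.93% of all genes did. LAMB1 lay between 6.47 and 7.21 in the hypothalamus of Iberians and their mean was 6.93, against means of 5.92 to 6.22 in the other breeds, with overlap. In the thyroid gland the Iberians were lowest, between 11.75 and 12.10, with overlap with 1 Large White and 1 Duroc, and the Youli lay between 12.44 and 12.54. The Iberian difference from the other breeds was 0.89 ± 0.24 in hypothalamus, -0.51 ± 0.09 in thyroid gland and -0.39 ± 0.24 in back fat.

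The interaction of TIMP2 was that of the chosen probeset, and its other bright probeset had an adjusted p of 0.967. On the chosen probeset TIMP2 differed in the thyroid gland, where Large Whites lay between 7.12 and 7.54 and Iberians between 7.40 and 7.87. All Durocs, at 7.82 to 9.38, and all Youli, at 8.08 to 8.52, were above all Large Whites, and Duroc male 12, whose thyroid array had the adipocyte signal, was highest. In back fat the breed differences of TIMP2 were -0.21 to 0.12. The number of members called was 0 or 1 in 12 of the 16 fits that left out 1 animal. Both interactions were lost when the 4 animals described next were left out (adjusted p = 0.45 for LAMB1 and 0.173 for TIMP2).

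**Figure D4:**
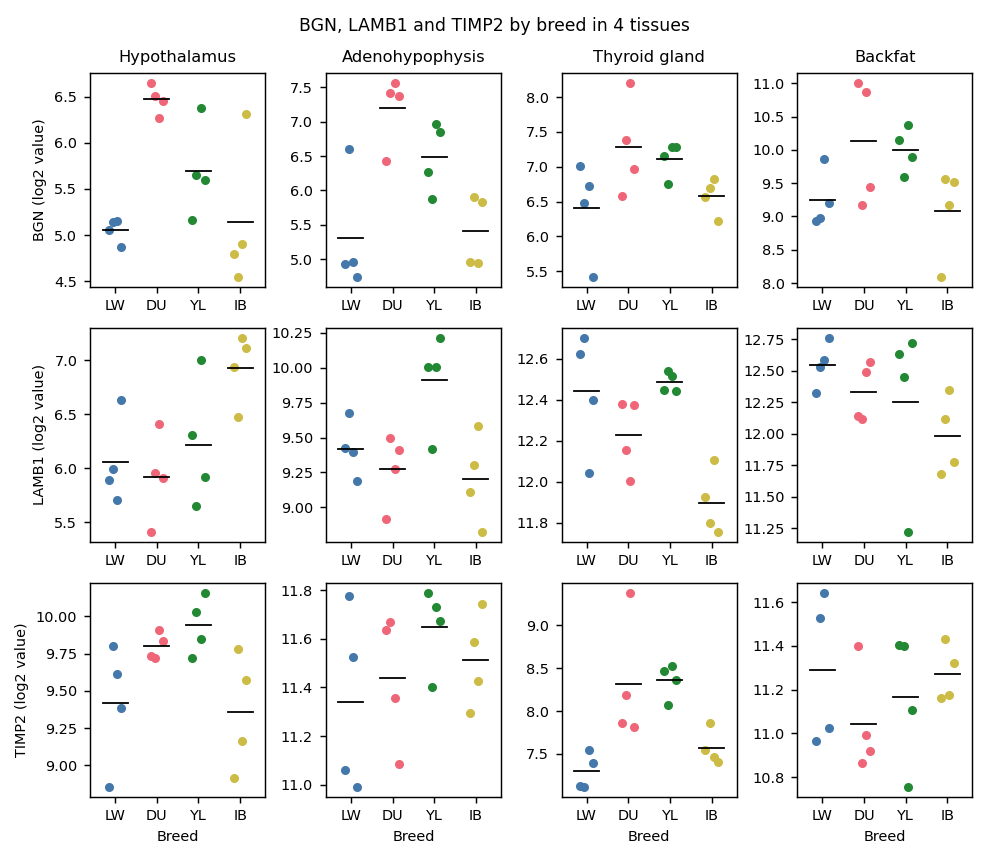
Log2 values of BGN, LAMB1 and TIMP2 in single arrays by breed (4 arrays each; the codes on the axis are the initials of each breed's name, from Large White, LW, to Iberian, IB) in 4 tissues, with lines at the breed means and an own vertical scale in each panel. BGN is high in Durocs in hypothalamus and adenohypophysis, and the Iberians are highest for LAMB1 in hypothalamus and lowest in thyroid gland.

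Animals also differed within a breed. In the 64 arrays of the 4 tissues other than gonads, TIMP3 (adjusted p = 1.6e-05), COL1A2 (0.00911) and COL3A1 (0.0402) differed between animals of the same breed (limma F with 12 degrees of freedom, a test added after the values were seen), where 19.9% of genes did. The tissues of an animal were its replicates in this test. As deviations from the tissue mean, averaged over the 5 tissues, TIMP3 was at -1.36 to -1.04 in Large Whites 4 and 5 and Iberians 22 and 23. The other 12 animals lay between -0.01 and 0.90, with no overlap. In back fat alone these 4 were at -1.93 to -1.32, below all 12 others.

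The same 4 animals stood apart in a technical measure. This was the difference between the 3′ and 5′ actin probesets of the array, which rises where RNA is degraded or the labelling is truncated. Averaged over the tissues of an animal, it was 0.59 to 0.69 above the tissue mean in these 4. In the others it was from 0.42 below to 0.04 above. Single arrays overlapped in the thyroid gland (from 0.23 in the 4, up to 0.42 in the others) and in testis (from 0.09, up to 0.15). The 4 were 2 Large Whites and 2 Iberians, and no Duroc or Youli. In the mean over tissues COL1A2, FBLN1 and MMP2 were below all 12 others as well, so that 4 of 50 members lay below and 0 above (6.61% and 3.43% of all genes). BGN lay between -0.83 and -0.48 in the 4 and between -0.49 and 1.13 in the others.

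With the actin difference as covariate, TIMP3 (adjusted p = 0.493) and COL1A2 (0.617) were no longer called within breeds, and COL3A1 was (0.0108). Without the 4 animals none of the 3 was called. The breed call of BGN was lost in both fits as given above, with a Duroc difference of 0.78 with the covariate and 0.84 without the animals. Over the other 12 animals the actin difference was related to TIMP3 (Pearson r = -0.735, adjusted permutation p = 0.0144; Spearman rho = -0.727, adjusted p = 0.0196; r = -0.654 without the 2 most distant animals). The relation of COL1A2 was -0.843 (adjusted permutation p = 0.00356; rho = -0.895, adjusted p = 0.00092; r = -0.846 without 2). Of 4 relations computed, those of BGN (r = -0.586, rho = -0.573, adjusted permutation p = 0.0593 and 0.0756; r = -0.492 without 2) and COL3A1 (r = 0.521, rho = 0.322, adjusted p = 0.0832 and 0.31) did not pass, and that of COL3A1 was -0.102 without 2. The members in these relations were picked because they were called between animals or breeds in the same data. The adjustment covers only the 4 relations, and the share of all genes related to the actin difference is not given. The relations are thus no independent test. These 12 animals were 4 Durocs, 4 Youli, 2 Large Whites and 2 Iberians. As deviations from the breed mean, r was -0.626 for TIMP3, -0.674 for COL1A2, -0.703 for BGN and 0.206 for COL3A1.

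**Figure D5:**
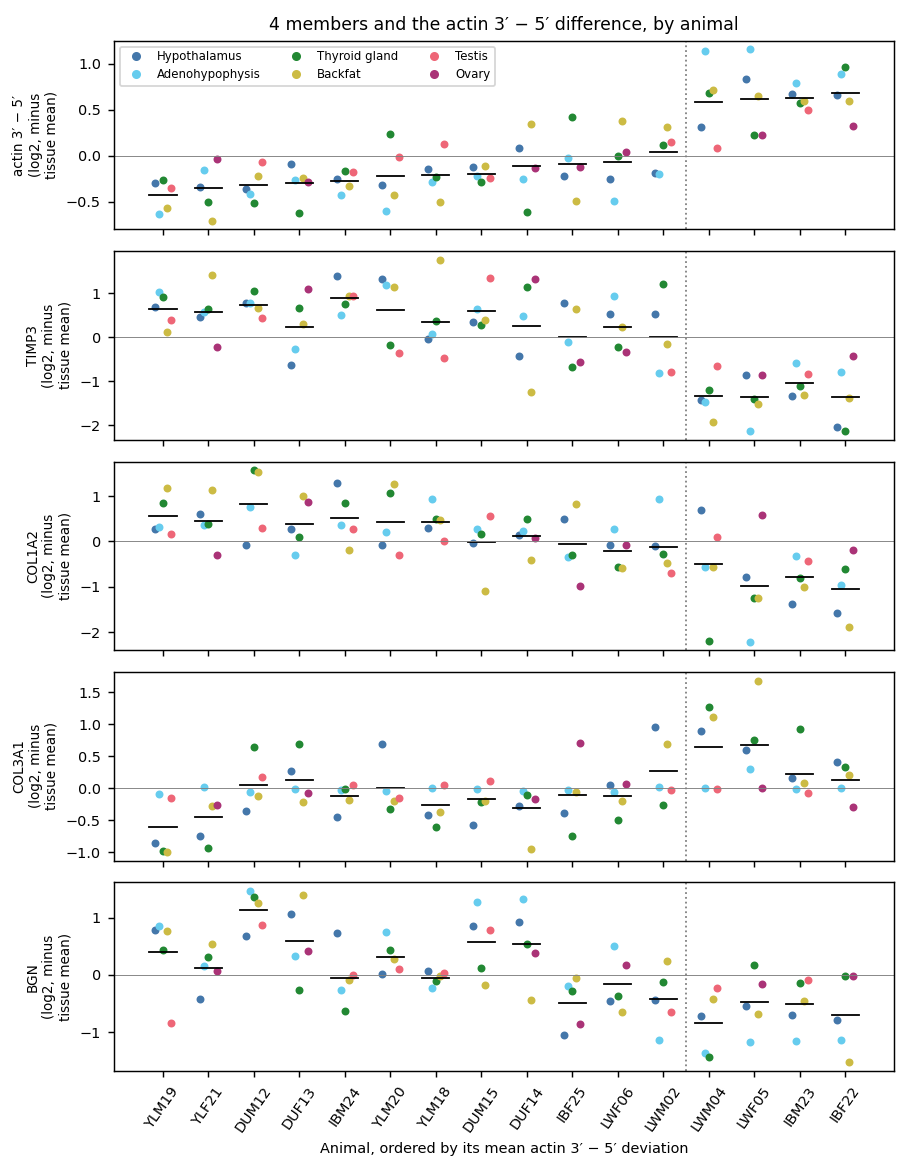
Deviation from the tissue mean (log2) of the actin 3′ minus 5′ difference and of TIMP3, COL1A2, COL3A1 and BGN, for each of 16 animals with coloured points for tissues and a black line at the mean; animals are ordered by the actin deviation and the dotted line sets off the 4 highest. TIMP3 is at -1.36 to -1.04 on average in these 4 and at -0.01 to 0.90 in the others.

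Between males and females there was no called member in the 4 tissues that both sexes share. The backgrounds were 0.0443% of genes in hypothalamus, 0.65% in adenohypophysis, 0.0739% in thyroid gland and 0.0148% in back fat. At an unadjusted p under 0.05 there were 1, 4, 2 and 1 members. The smallest p was that of TIMP1 in the adenohypophysis, which was 0.43 ± 0.11 below the females in males (adjusted p = 0.171, limma; 0.547% of genes were called lower in males there).

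Members that act together were compared over animals within each tissue. Of 24 relations in 4 pairs of members and 6 tissue classes, 6 had a permutation p (exact in the gonads) adjusted over all 24 under 0.05. DCN and LUM rose together in the thyroid gland (r = 0.858, adjusted permutation p = 0.00096; rho = 0.85, adjusted p = 0.0012), where r was 0.781 without the 2 animals most distant in DCN and 0.888 without the 4 animals of high actin difference. The thyroid arrays of Duroc male 12 and Youli male 20, with the adipocyte signal, had the highest DCN levels, and the part of that signal was not tested. They did so in the hypothalamus (r = 0.784, adjusted permutation p = 0.00384; rho = 0.868, adjusted p = 0.0012; r = 0.89 without 2). In testis r was 0.912 (adjusted exact permutation p = 0.00509; rho = 0.833, adjusted p = 0.0661; r = 0.767 without 2), and in back fat 0.717 (adjusted permutation p = 0.00782; rho = 0.576, adjusted p = 0.087; r = 0.591 without 2). No relation was detected in the adenohypophysis (r = 0.176, rho = 0.0324, adjusted permutation p = 0.602 and 0.949) or in the 7 ovaries (r = -0.553, rho = -0.25, adjusted exact permutation p = 0.304 and 0.836). Without the 2 most distant animals r was -0.0685 in the adenohypophysis and -0.182 in the ovaries.

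MMP2 and TIMP2, which bind each other on the cell surface, were related in the thyroid gland (r = 0.735, adjusted permutation p = 0.00782; rho = 0.579, adjusted p = 0.087; r = 0.501 without 2). The thyroid array of Duroc male 12, with the adipocyte signal, had the highest TIMP2 level, and the part of that signal was not tested. COL1A2 and COL3A1, the chains of the main fibrils, had no relation that passed, with r from -0.719 in adenohypophysis, which was 0.0496 without 2 animals, to 0.549 in testis. SPARC and COL1A2 were inversely related in the adenohypophysis (r = -0.633, adjusted permutation p = 0.0331; rho = -0.588, adjusted p = 0.087). This relation fell to r = -0.316 without 2 animals and to -0.253 without the 4 of high actin difference, and so rested on few animals. Between tissues, the mean correlation of an animal's levels over pairs of the 4 tissues other than gonads was at least 0.5 for 4 of 50 members, or 8%, near the 10.9% of all genes. These were TIMP3 (0.667), COL3A1 (0.559), BGN (0.534) and COL1A2 (0.513), the members whose values are given above beside the actin difference, whose part here was not tested.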

How the data were processed

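Total RNA of 80 samples was hybridised to Affymetrix Porcine GeneChips. Expression data were generated with GCOS, and the authors normalized all 80 arrays together by GCRMA. The log2 values deposited by the authors entered the tests unchanged; software versions are not given in the sources used here. Of 24123 probesets, 124 controls were left out and 23999 tested. Array medians lay between 4.67 and 5.04, and the number of arrays limits the precision. Groups came from sample titles. The members and lists were chosen with earlier results of these data known.

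Tests were made with limma 3.58.1 in R 4.3.3 (lmFit and eBayes, two-sided, Benjamini-Hochberg over all probesets, adjusted p under 0.05), checked on simulated data. Tissues were fitted with breed and sex as covariates, gonads with breed, breeds with sex, and sex with breed; the interaction had animal, tissue and tissue by breed. Correlations used 100000 resamples, or exact permutation under 10 values (scipy 1.17.1). For breed within a tissue or as a mean over tissues, for sex, gonads and correlations, p-values measure the spread between animals. The tissue fit had no animal term, and its p-values measure the spread between arrays pooled over tissues. Those of the interaction and of animals within a breed measure the spread within animals.

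Replicate numbers are those of the animals, so that arrays pair across tissues by the labels. Deviations from the tissue and breed mean of 1 animal correlated with a median r of 0.255 in hypothalamus, 0.305 in adenohypophysis, 0.265 in thyroid gland, 0.223 in back fat and 0.092 in gonads, against its other tissues.

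Genes were named by a rule: in each tissue comparison up to 4 called members with the largest differences in each direction, between gonads up to 8, for breed and sex up to 6 by smallest p, 25 genes of known role where measured, and the extremes of each role group. Alternatives were centring of arrays, leaving out dim probesets, a trend and robust eBayes, the mean of all probesets of a gene, breed and sex by the fields of the thyroid samples, the animal as replicate block, each animal left out, and, added after the values were seen, the actin covariate, the 4 animals and the 4 arrays left out, the other bright probeset of TIMP2, and actin relations as deviations from the breed mean. RefSeq matched all 50 members by gene ID.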

Additional observations from a re-analysis of the deposited data

Results flagged for a closer look

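In 76 groups of a member that were examined (testes, ovaries, or the 4 animals of a breed), a single array lay far from the others in 5, where chance gives about 1 in 20. TIMP1 was at 13.48 in the ovary of Iberian female 22, with the other ovaries at 9.73 to 10.94. DCN was at 12.49 in the ovary of Iberian female 25, whose ovarian markers were near background, with the others at 13.40 to 13.97. In the testis of Youli male 19, FBLN1 (6.64; others 7.28 to 7.88), LAMB2 (7.36; others 8.334 to 9.001) and LAMC1 (8.80; others 9.29 to 9.79) were low, in an array where 7 members lay at least 1 log2 unit below the testis median.

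Breed differences changed between tissues for LAMB1 (interaction, limma adjusted p = 0.0333) and TIMP2 (0.0385), and neither was called without the 4 animals of high actin difference, nor TIMP2 on its other bright probeset (adjusted p = 0.967).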

How the results depend on the processing

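Of the counts and correlations that answer a comparison, 757 values under an alternative were near the main one and 61 were not; of single members, 1451 kept their side of the threshold, 66 lost it and 2 turned their sign while called, TIMP2 in adenohypophysis (-0.77) and in ovary (0.41), on its other bright probeset. Centring arrays gave 0 members lower in back fat, 16 lower in ovary and 7 higher in testis than in ovary. The mean of all probesets gave 1 member for breed in thyroid gland (LAMB1). With the animal as replicate block over 80 arrays, which counted an animal's tissues nearly as separate replicates, 5 members differed by breed. In that fit 4 were called in Large White, 1 in Youli and 2 in Iberian. The paired fits moved no other count by more than 1.5 times and changed no call of a named member in the tissue comparisons. With the 4 non-gonadal tissues averaged, Duroc had 0. The actin covariate gave 1 member for breed in back fat (MMP3), 0 for breed over all tissues, 0 in Duroc and 1 between animals within breeds. Without the 4 animals of high actin difference there were 0 for each of breed over all tissues, Duroc, the interaction, animals within breeds, and lower in back fat. The cause of these changes was not tested.

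Leaving out each animal in turn gave 0 to 1 member in Duroc, 0 to 4 in Iberian (4 without Iberian 24, 1 without Youli 19), 0 to 2 for the interaction, 1 to 2 for breed over all tissues (2 without Youli 19 or Iberian 24), 0 to 2 for breed in adenohypophysis (2 without Large White 6), 0 to 1 for breed in each of hypothalamus, thyroid gland and back fat, and 0 to 2 lower in back fat. As deviations from the breed mean, r was -0.0974 for COL1A2 and COL3A1 in back fat, 0.592, 0.461 and -0.912 for DCN and LUM in hypothalamus, adenohypophysis and ovary, -0.824 and 0.368 for SPARC and COL1A2 in adenohypophysis and ovary, 0.787 for MMP2 and TIMP2 in back fat, and -0.674 and 0.206 for the actin difference with COL1A2 and COL3A1. Dim probesets limit what can be read from 16 members.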

Other observations

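Outside the contrasts above, MMP7 (matrilysin, an epithelial metalloproteinase) was at 6.41 in the ovary of Iberian female 25 and between 2.22 and 3 in the other 6 ovaries, and ITGA8 was at 6.92 in the same ovary, with the others between 2.59 and 4.82. In ovary against the other tissues the difference of MMP7 was 0.66 with this array and 0.11 without the 4 arrays that stood apart. LUM was highest in the ovary of Iberian female 25 (11.20), where LAMB1 was lowest (9.25).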
